A study of Capra hircus with 12 samples.

Results

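The miRNAs described here belong to the miR-188, miR-500, miR-532 and miR-660 cluster, a group of hairpins known in mammals from introns of CLCN5 on the X chromosome. Members were chosen by name, as every row of the deposited table called chi-miR-188, chi-miR-362, chi-miR-500, chi-miR-501, chi-miR-502, chi-miR-532 or chi-miR-660, with or without a letter and an arm. The table held 12 such rows among its 500 miRNAs, and 11 of them passed the filter on low counts over all libraries, chi-miR-188-3p being the exception. They were chi-miR-188-5p, chi-miR-188-3p, chi-miR-362-5p, chi-miR-362-3p, chi-miR-500-5p, chi-miR-500-3p, chi-miR-502a, chi-miR-502b-5p, chi-miR-502b-3p, chi-miR-532-5p, chi-miR-532-3p and chi-miR-660. No row was named for miR-501. The cluster was proposed with earlier results of these data in view, differences between breeds included, so differences between breeds are given below as values without a test.

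Small RNA libraries were made from longissimus dorsi, the long back muscle, of rams of a local Chinese breed, Longlin, and a foreign breed, Nubian. The 4 groups were Longlin goats labelled 1 month old, Longlin goats labelled 10 months old, Nubian goats labelled 1 month old and Nubian goats labelled 10 months old, with 3 goats and 3 libraries each. All the rams were fasted before slaughter, and neither labels nor methods name another treatment or an altered gene in any group. The study asked which miRNAs differ between the ages.

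A miRNA gene is transcribed as a long primary transcript, from which a hairpin is cut out and then trimmed to a short duplex. The strand from the 5′ side of the hairpin is named 5p and that from the 3′ side 3p, and the strand loaded into an Argonaute protein pairs with messenger RNAs and lowers their output. CLCN5, which hosts the cluster, encodes a chloride and proton exchanger of endosomes. Within the family, miR-188 is known from work on the choice of marrow stromal cells between bone and fat, miR-501 from muscle progenitors, and miR-532 and miR-660 are mostly known from studies of tumours.

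In the RefSeq annotation of the goat assembly ARS1.2, 5 of the hairpins lay inside CLCN5, which spans chrX:16253364-16442137. In order along the chromosome they were MIR502A at chrX:16333817-16333901, MIR660 at chrX:16335735-16335812, MIR500 at chrX:16337842-16337925, MIR362 at chrX:16339123-16339220 and MIR502B at chrX:16339607-16339689. They spanned 5873 bases from the first to the last. The annotation table gave whole genes only, so intron and exon were not resolved. MIR188 and MIR532 were on sequence with no chromosome assigned in that assembly.

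The age in the names needs a caution before any value is read. The deposited comparison tables hold a mean for each age, and those means matched the libraries of the opposite age label. In Longlin and in Nubian goats alike, the mean named for 1 month equalled the mean of the libraries labelled 10 months within 0.1% for 500 of 500 miRNAs, and for 12 of 12 members. The libraries are called here by the age in their own labels. A direction read from those means is therefore the reverse of one read from the libraries. Which naming holds is not shown by the tables, and if it is the other, every age difference below changes sign.

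The libraries held between 7002417 and 11350546 counted reads. Skeletal muscle miRNAs (miR-1, miR-133a, miR-133b, miR-206, miR-208b and miR-499) took 39.4 to 54.6% of the reads in the Longlin libraries labelled 10 months and 58.2 to 71.7% in the other libraries, while erythroid miRNAs took at most 0.052% and leukocyte miRNAs at most 0.043% in any library. Endothelial miR-126 took 0.242 to 0.732%, and smooth muscle miR-143 and miR-145 took 5.15 to 13.1%. The TMM scaling factors moved with this, at 1.17 to 1.48 in the Longlin libraries labelled 10 months and 0.687 to 1.19 in the others, and the part of this in the results was not tested. Nubian replicate 2 labelled 1 month stood apart from its group, with a mean squared correlation of 0.944 with its own group and of 0.946 with the Nubian libraries of the other label. Tested results that move across a threshold without it are given with both values. In whole muscle, fewer cells of a type and less RNA per cell cannot be told apart.

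The members together took 0.340 to 0.631% of the reads in 9 libraries and 0.759 to 1.05% in the 3 Longlin libraries labelled 10 months. On the CPM scale, which divides each count by a library size that TMM adjusts over all 12 libraries, their sum was 4707 ± 222.1 (SD, n = 3) in the Nubian and 4932 ± 107 in the Longlin libraries labelled 1 month. It was 5229 ± 538 in the Nubian and 6554 ± 580 in the Longlin libraries labelled 10 months. Each of those last 3 libraries, at 7103, 6611 and 5948 CPM, lay above each of the other 9, whose highest value was 5697 CPM. The share of all miRNAs separated in this way was not taken, so this is description only. Scaling by total counts put the median age difference of all miRNAs in Longlin goats at a log2 fold change of 0.79, with 42% called higher. TMM over all 12 libraries put that median at 0.29. No rise particular to the cluster is read from these sums.

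The levels of single members were very unequal. chi-miR-532-5p alone held 73.4% of all reads counted on the cluster. chi-miR-660 held 14.7%, chi-miR-500-3p 7.04%, chi-miR-362-5p 2.51%, chi-miR-500-5p 1.16% and chi-miR-532-3p 0.945%. The remaining members held under 0.1% each, from chi-miR-502b-3p with 577 reads over the 12 libraries down to chi-miR-188-3p with 18. Hairpins only a few kilobases apart thus differed widely: MIR502A and MIR660 are neighbours, and chi-miR-502a had a mean level of 4.26 CPM against 832 CPM for chi-miR-660.

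chi-miR-532-5p is the main product of MIR532. Its level was 3420.0, 3205 and 3112 CPM in the Longlin libraries labelled 1 month and 5766, 5175 and 4669 CPM in those labelled 10 months. In Nubian goats it was 2983, 3197 and 3214 CPM with the 1-month label and 3977, 3359 and 4212 CPM with the 10-month label. The libraries labelled 10 months thus lay above those labelled 1 month in each breed, with no overlap. The share of all miRNAs whose levels separate the age labels in this way was not taken. Separations of levels between the age labels are therefore description only. chi-miR-532-3p, the other strand of that hairpin, ran in parallel at a far lower level. It was 47.2, 38.0 and 38.9 CPM in Longlin goats labelled 1 month and 61.4, 72.4 and 61.0 CPM in those labelled 10 months, and 38.6, 39.5 and 37.8 against 56.5, 49.9 and 60.8 CPM in Nubian goats.

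chi-miR-660 is the second most abundant member. Its level was 788, 992 and 1007 CPM in Longlin libraries labelled 1 month and 746, 875 and 792 CPM in those labelled 10 months. In Nubian goats the values were 911, 650.2 and 951 CPM and 647, 761 and 869 CPM. All 4 groups overlapped.

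chi-miR-500-3p, the main product of MIR500, went the other way from chi-miR-532-5p. In Longlin goats it was 606, 466 and 497 CPM in the libraries labelled 1 month and 253, 219 and 229.8 CPM in those labelled 10 months. In Nubian goats it was 509, 496 and 586 CPM against 418, 242 and 349 CPM. The groups of the 2 labels did not overlap in either breed. chi-miR-500-5p, from the opposite side of the hairpin, did not share this: it was 46.6, 66.9 and 62.8 CPM against 94.6, 83.5 and 48.3 CPM in Longlin goats, and 47.0, 39.9 and 48.1 CPM against 77.0, 72.4 and 43.3 CPM in Nubian goats, with overlap in both.

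The scarce members chi-miR-502a and chi-miR-502b-3p resembled chi-miR-500-3p. chi-miR-502a, whose name gives no arm, was 8.70, 5.32 and 5.66 CPM in the Longlin libraries labelled 1 month and 2.17, 2.33 and 1.84 CPM in those labelled 10 months, and 7.40, 4.35 and 6.49 against 1.64, 1.39 and 3.83 CPM in Nubian goats. chi-miR-502b-3p was 6.86, 7.14 and 7.03 CPM against 3.34, 3.50 and 3.38 CPM in Longlin goats and 8.26, 5.39 and 5.39 CPM against 3.81, 3.40 and 4.83 CPM in Nubian goats. For both, the libraries labelled 10 months lay below those labelled 1 month in each breed. The 3p strands of miR-500, miR-501 and miR-502 are known for near-identical sequences, so the division of reads among these rows is uncertain, and it was not tested here.

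chi-miR-362-5p, from the hairpin between MIR500 and MIR502B, was 117 ± 13.1 CPM (SD, n = 3) in Longlin libraries labelled 1 month and 156 ± 20.4 CPM in those labelled 10 months, without overlap. With scaling over the Longlin libraries alone its fitted log2 fold change was only 0.09. Nubian goats had 153, 76.5 and 94.9 CPM against 159.6, 149 and 148 CPM, so replicate 1 labelled 1 month lay among the libraries labelled 10 months. chi-miR-362-3p stayed between 0.673 and 4.43 CPM, and its groups overlapped in both breeds.

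chi-miR-188-5p rested on few reads. It had 14, 6 and 4 counts in the Longlin libraries labelled 1 month and 59, 49 and 21 in those labelled 10 months, or 1.43, 0.840 and 0.686 CPM against 3.65, 3.81 and 2.03 CPM, with no overlap. In Nubian goats it had 12, 17 and 14 counts against 35, 8 and 5, where the single high library, replicate 1, accounts for most of the reads. chi-miR-188-3p had between 0 and 9 counts in any library and entered no test. chi-miR-502b-5p had 11, 4 and 2 counts against 52, 31 and 30 in Longlin goats, and 0, 9 and 3 counts against 24, 5 and 7 in Nubian goats. The library with 0 counts of it allows up to 3 reads by counting error.

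**Figure D1:**
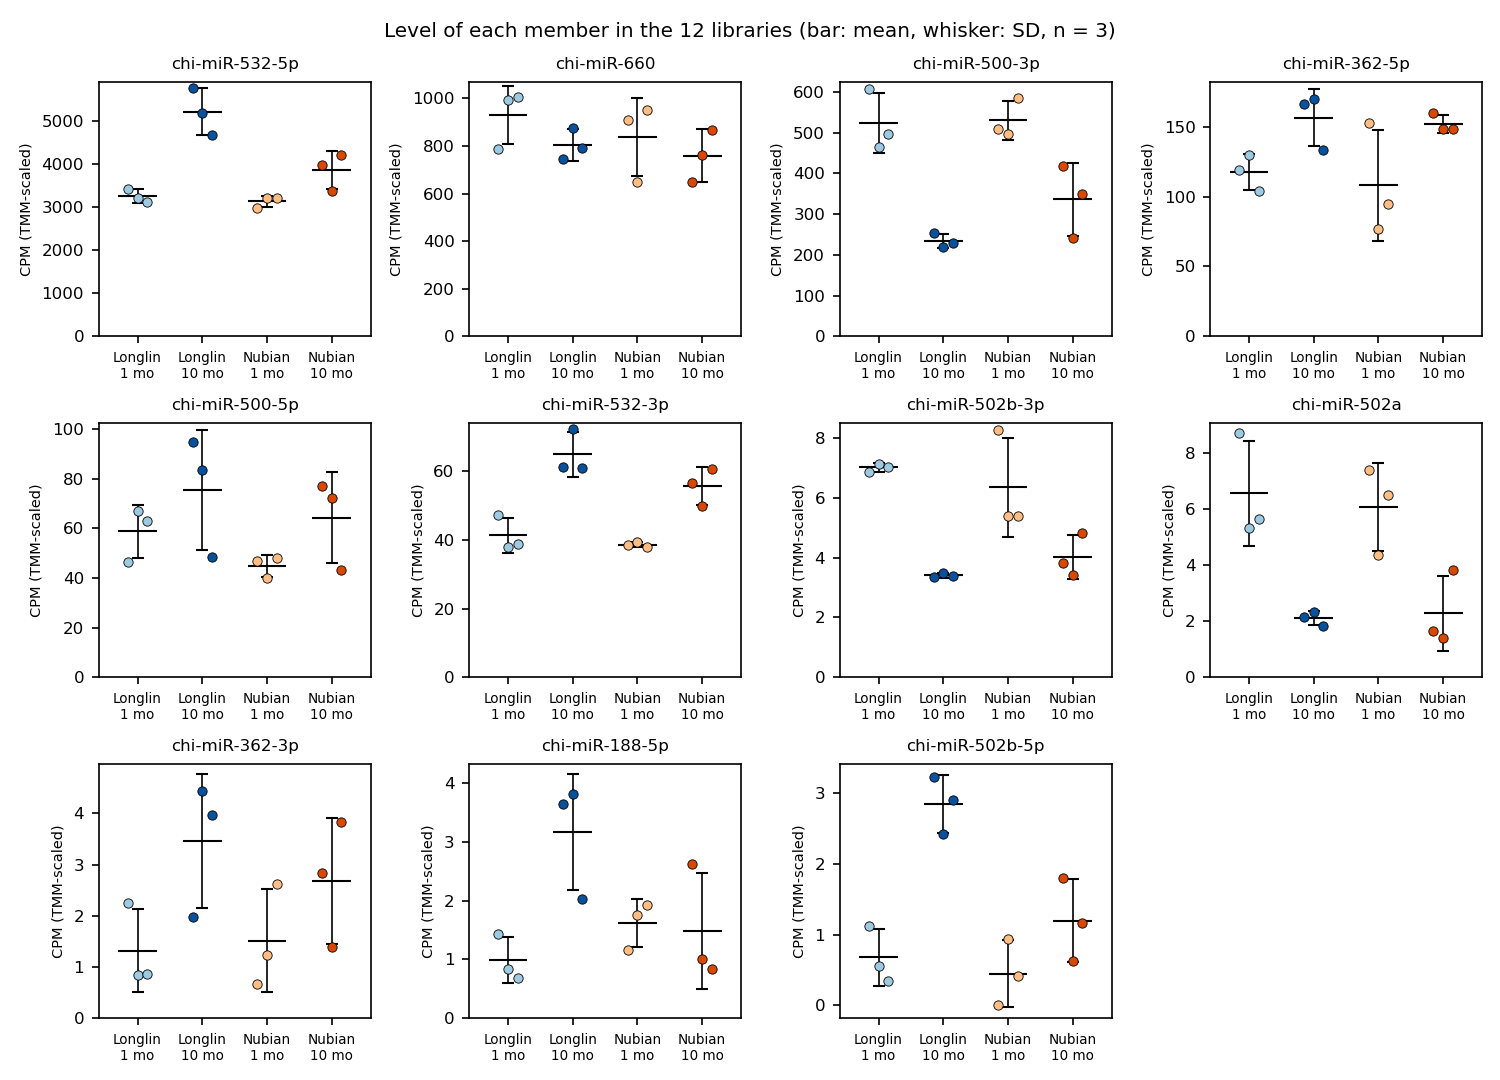
Level of 11 members in the 12 libraries, in TMM-scaled CPM on linear axes from 0 (vertical) by breed and age label (horizontal; mo, months). Each point is a library, the bar is the mean and the whisker the SD (n = 3); chi-miR-500-3p is at 466 to 606 CPM in Longlin libraries labelled 1 month and at 219 to 253 CPM in those labelled 10 months, while chi-miR-532-5p is highest in the Longlin libraries labelled 10 months.

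Within Longlin goats chi-miR-500-3p and both miR-502 members like it fell, while the most abundant member did not pass the test. By edgeR's quasi-likelihood test, fitted over 314 miRNAs with a call set at an adjusted p below 0.05 and an absolute log2 fold change above 1, 3 of the 11 members tested were called lower in the libraries labelled 10 months and 2 higher. Over all miRNAs tested, 19.4% were called lower and 31.2% higher. chi-miR-500-3p fell to 0.362 times its level (log2 fold change -1.46, SE 0.22, adjusted p = 0.000266). chi-miR-502a fell to 0.257 times (-1.96, SE 0.35, adjusted p = 0.000727), and chi-miR-502b-3p to 0.392 times (-1.35, SE 0.30, adjusted p = 0.00254). The division of reads among these 3 rows is uncertain and its part in the calls was not tested. The 3 lower calls are therefore not shown to be independent of each other.

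The 2 members called higher were scarce ones, and both entered the fit through the libraries in which they were high: 1 of 3 libraries labelled 1 month and 3 of 3 labelled 10 months had 10 or more counts, where 3 libraries were needed. Entry in this way favours members that are higher with the 10-month label, so nothing is read from these calls about the cluster. The same counts of libraries applied to chi-miR-362-3p, which was not called. chi-miR-502b-5p rose 3.15-fold (log2 fold change 1.66, SE 0.50, adjusted p = 0.0156) and chi-miR-188-5p 2.44-fold (1.29, SE 0.45, adjusted p = 0.0283). The call of chi-miR-188-5p was lost without replicate 2 or 3 labelled 1 month, or without replicate 2 labelled 10 months, with adjusted p of 0.0747, 0.0690 and 0.0503. chi-miR-362-3p, not called with all 6 libraries, was called without replicate 1 of either label, at 1.70 and 1.52. chi-miR-502b-5p and the 3 lower members kept their calls whichever Longlin library was left out. chi-miR-660 had a log2 fold change of -0.52 (SE 0.20, adjusted p = 0.0498), under the fold limit, and it stayed under an adjusted p of 0.05 in 1 of 6 fits with a Longlin library removed. The abundant chi-miR-532-5p had 0.37 (SE 0.20, adjusted p = 0.147) and chi-miR-532-3p 0.33 (SE 0.22, adjusted p = 0.210). chi-miR-362-3p, chi-miR-362-5p and chi-miR-500-5p had 0.99, 0.09 and 0.03, none past the threshold. The median log2 fold change of the members was 0.09, against -0.01 for all miRNAs tested.

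These values depend on how libraries of such different composition are scaled. TMM over the 6 Longlin libraries put the median of all miRNAs at -0.01, and TMM over all 12 libraries put it at 0.29, which is why the CPM values above differ more for chi-miR-532-5p than its fold change does. Scaling by total counts put that median at 0.79. On that scale 5 members were called higher and 1 lower, against 42% and 7.96% of all miRNAs, with chi-miR-532-5p at a log2 fold change of 1.17 among the higher, chi-miR-502a at -1.18 as the lower, and chi-miR-660 changed sign to 0.29. chi-miR-500-3p and chi-miR-502b-3p stayed below 0 there, at -0.68 and -0.55, without a call. The order of the members was the same with either scaling at its ends, from chi-miR-502a at the bottom to chi-miR-502b-5p at the top.

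Within Nubian goats no member was called by edgeR, 0 higher and 0 lower of 10 tested (chi-miR-502b-5p did not pass the filter there), where 6.78% of all 295 miRNAs tested were called higher and 5.08% lower. At an unadjusted p below 0.05 there were 2 members, both lower: chi-miR-502a (log2 fold change -1.54, SE 0.48, adjusted p = 0.074) and chi-miR-500-3p (-0.77, SE 0.27, adjusted p = 0.099). DESeq2 called 1, chi-miR-502a, at -1.47 (adjusted p = 0.028), and 7.8% of all miRNAs lower. Without Nubian replicate 2 labelled 1 month, edgeR called it too, at -1.68 (adjusted p = 0.027). chi-miR-502b-3p had -0.77 (SE 0.35, adjusted p = 0.169), and the other 7 members lay between -0.24 and 0.72. chi-miR-188-5p was at -0.17 (SE 0.58) and at 0.11 with scaling by total counts. The median over the members was 0.01, against -0.11 for all miRNAs tested.

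**Figure D2:**
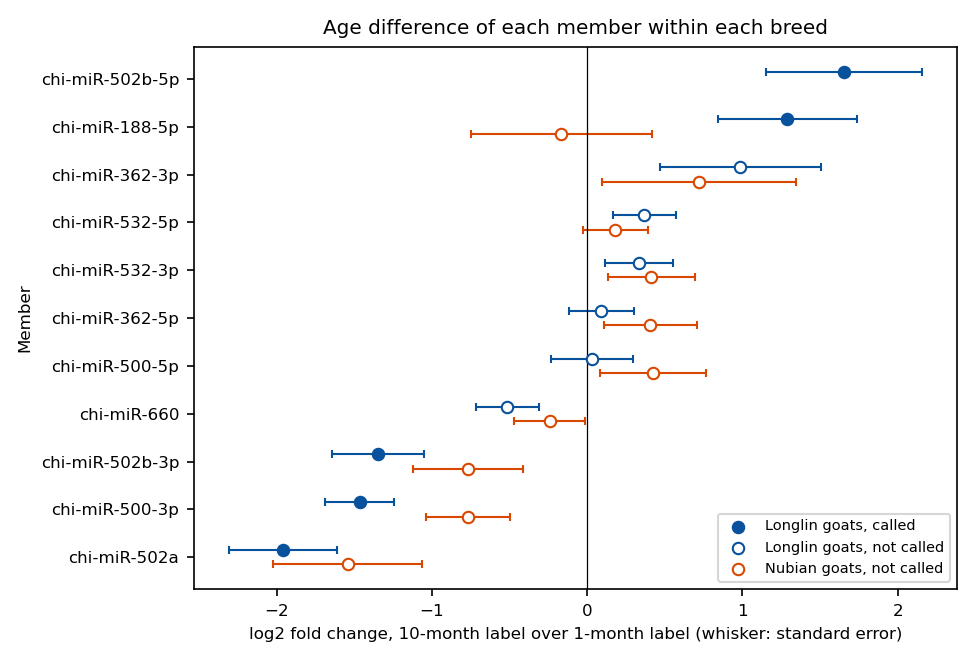
Fitted log2 fold change of each member, libraries labelled 10 months over those labelled 1 month (horizontal), within Longlin goats (blue, 11 members) and Nubian goats (orange, 10 members); whiskers are standard errors and filled points were called. The 3 lowest members are chi-miR-502a, chi-miR-500-3p and chi-miR-502b-3p in both breeds, and filled points are in Longlin goats.

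Over both breeds, with breed as an additive term and 331 miRNAs tested, 2 members were called higher and 1 lower, against 29% and 12.4% of all miRNAs. chi-miR-502a fell (log2 fold change -1.54, SE 0.29, adjusted p = 0.00077), and chi-miR-502b-5p (1.74, SE 0.54, adjusted p = 0.0135) and chi-miR-362-3p (1.09, SE 0.42, adjusted p = 0.0414) rose. chi-miR-500-3p and chi-miR-502b-3p, at -0.91 and -0.85, passed the adjusted p but not the fold limit. The same held for chi-miR-532-3p at 0.59 (adjusted p = 0.00528), chi-miR-532-5p at 0.49 (adjusted p = 0.0087) and chi-miR-362-5p at 0.45 (adjusted p = 0.0491), but leaving out a single library could end each of these 3 passes. With 1 library removed, chi-miR-532-3p and chi-miR-532-5p passed the adjusted p in 6 of 12 fits each and chi-miR-362-5p in 1 of 12. Without Nubian replicate 3 labelled 1 month they were at 0.35 (adjusted p = 0.0697), 0.28 (adjusted p = 0.115) and 0.18 (adjusted p = 0.423), and with no filter at 0.37 (adjusted p = 0.118), 0.27 (adjusted p = 0.173) and 0.25 (adjusted p = 0.364). Both strands of MIR532 also missed it without Nubian replicate 1 labelled 1 month, Nubian replicate 2 or 3 labelled 10 months, or Longlin replicate 2 or 3 labelled 1 month, while chi-miR-362-5p passed it only without Longlin replicate 3 labelled 10 months.

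Without Nubian replicate 2 labelled 1 month, the library that stood apart, chi-miR-362-5p was at 0.19 (adjusted p = 0.409), chi-miR-362-3p at 0.93 (adjusted p = 0.0704), chi-miR-500-3p at -1.11 and chi-miR-502b-3p at -1.09. chi-miR-660 had -0.17 (adjusted p = 0.345) with all libraries and -0.41 (adjusted p = 0.0389) without that one. In the fit over both breeds chi-miR-502b-5p had 10 or more counts in 1 of 6 libraries labelled 1 month and 4 of 6 labelled 10 months, so it again entered through the group in which it was high. The call of chi-miR-362-3p did not hold in 8 of 12 fits with 1 library removed, those without Nubian replicates 1 or 2 labelled 1 month, Nubian replicates 1 or 3 labelled 10 months, or Longlin replicates 2 or 3 of either label. The call was lost for chi-miR-502b-5p in 2 of 12, without Longlin replicate 2 or 3 labelled 1 month. The call of chi-miR-502a held in 12 of 12. chi-miR-500-3p passed the fold limit without any 1 of the 6 Nubian libraries or without Longlin replicate 2 or 3 labelled 1 month, at -1.02 to -1.14. chi-miR-502b-3p passed it in 5 of 12 such fits, without Nubian replicate 2 or 3 of either label or Longlin replicate 3 labelled 1 month. The median over the members was 0.45, against 0.13 for all miRNAs tested. DESeq2 size factors in edgeR gave 1 member higher and 2 lower (28.7% and 13.9% of all miRNAs), and no filter gave 1 higher and 3 lower (20% and 11.4%).

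Whether the age difference itself differed between the breeds was tested with an interaction term. edgeR called none of the 11 members, as it called 0% of all 331 miRNAs, and DESeq2 called no member and 4 miRNAs in all. At an unadjusted p below 0.05 there was 1 member, chi-miR-188-5p, whose age difference was lower by 1.68 on the log2 scale in Nubian goats (SE 0.72, adjusted p = 0.381). The difference was 0.50 (SE 0.33, adjusted p = 0.516) for chi-miR-500-3p and -0.38 (SE 0.25, adjusted p = 0.516) for chi-miR-532-5p. The calls made in Longlin goats alone are therefore not shown to be particular to that breed.

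The strands of one hairpin can be compared inside a library, where scaling plays no part. For each of 77 hairpins with a mean of at least 10 counts on both arms, the log2 ratio of 5p to 3p counts was compared between the labels by limma, with breed as an additive term. Of the 4 hairpins of the cluster tested, MIR500 and MIR502B were called with the 5p share higher in the libraries labelled 10 months, and none with it lower. Both called ratios divide by a 3p count, and the division of reads between the 3p rows of MIR500 and MIR502B is uncertain. Its part in these calls was not tested, so they are not shown to be independent of each other. Over the 77 hairpins 24.7% were called higher and 10.4% lower.

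MIR500 gave mostly its 3p strand in every library. The ratio of 5p to 3p counts was 0.0769, 0.144 and 0.126 in the Longlin libraries labelled 1 month and 0.373, 0.382 and 0.210 in those labelled 10 months. In Nubian goats it was 0.0924, 0.0806 and 0.0821 against 0.184, 0.299 and 0.124. The libraries labelled 10 months lay above those labelled 1 month in both breeds, and the log2 difference was 1.32 (SE 0.27, adjusted p = 0.0041). It stayed between 1.18 and 1.47 with each library left out in turn.

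MIR502B changed in the same direction from far fewer reads. Its ratio was 0.170, 0.0874 and 0.0602 in Longlin libraries labelled 1 month, and with the 10-month label the strands were near parity, at 0.963, 0.692 and 0.859. Nubian goats had 0.00578, with 0 counts of the 5p strand, then 0.181 and 0.0886, against 0.476, 0.200 and 0.254. The log2 difference was 2.89 (SE 0.66, adjusted p = 0.0056), and 2.26 without the library at 0 counts. The hairpin entered the test through the Longlin libraries labelled 10 months, which held 113 of the 178 reads of its 5p strand. Over the other 9 libraries that strand had a mean of 7.22 counts, under the 10 required, so the call is that of a hairpin selected where its 5p strand was high. MIR502B did not enter when both arms had to have a mean of 50 counts.

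MIR532 had 5p counts 67.2 to 93.9 times the 3p counts over the 12 libraries, and a log2 difference of -0.10 over both breeds did not pass the test (SE 0.17, adjusted p = 0.645). In Nubian goats the ratio was 77.1, 80.9 and 84.8 with the 1-month label and 70.4, 67.2 and 69.1 with the 10-month label, lower and without overlap, while in Longlin goats it was 72.4, 84.3 and 79.8 against 93.9, 71.4 and 76.5, with overlap. Neither the difference within a breed nor that between the breeds was tested. MIR362 had 33.2 to 212 times more 5p than 3p and a log2 difference of -0.67 (SE 0.45, adjusted p = 0.278). MIR188, MIR502A and MIR660 could not be compared in this way, since only 1 arm was listed or 1 arm had too few counts.

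**Figure D3:**
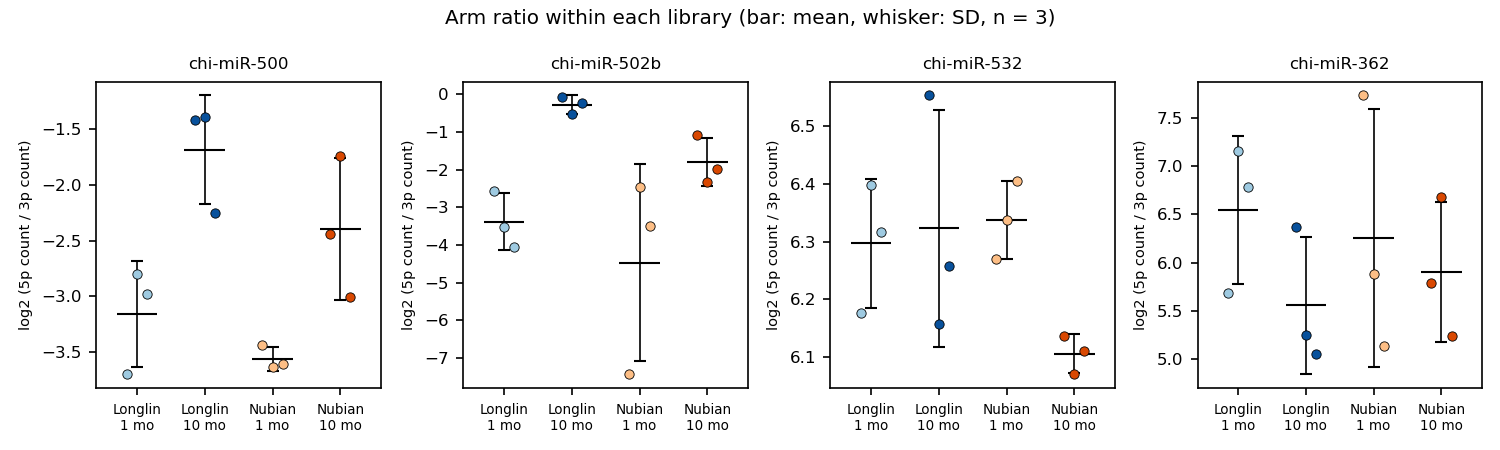
Log2 ratio of 5p to 3p counts within each library (vertical) for the 4 hairpins tested, by breed and age label (horizontal). Points are libraries, bars are means and whiskers the SD (n = 3), and each panel has its own scale; MIR500 and MIR502B are higher with the 10-month label, and the lowest point of MIR502B is the library with 0 counts of the 5p strand.

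The make-up of the cluster is described by the share of each member in its reads, which does not depend on scaling between libraries and was not tested. chi-miR-532-5p was 65.8 ± 1.77% of the cluster's reads (SD, n = 3) in Longlin libraries labelled 1 month and 79.3 ± 1.62% in those labelled 10 months. Nubian goats had 66.6 ± 3.70% and 73.6 ± 1.04%. chi-miR-500-3p was 10.6 ± 1.29% and 3.58 ± 0.278% of the reads in Longlin goats, and 11.3 ± 0.515% and 6.39 ± 1.32% in Nubian goats. Neither overlapped between the labels in either breed. chi-miR-660 made up 18.9 ± 2.84% and 12.4 ± 1.60% in Longlin goats, without overlap, and 17.7 ± 2.88% and 14.6 ± 2.23% in Nubian goats, with overlap. chi-miR-362-5p stayed at 2.30 to 2.93% in the means of the 4 groups. The shares of a library sum to a whole, so a higher share of chi-miR-532-5p goes with lower shares of the rest. The level of chi-miR-660 in CPM overlapped between the labels in both breeds. These separations of shares have no counterpart over all miRNAs and are description only.

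**Figure D4:**
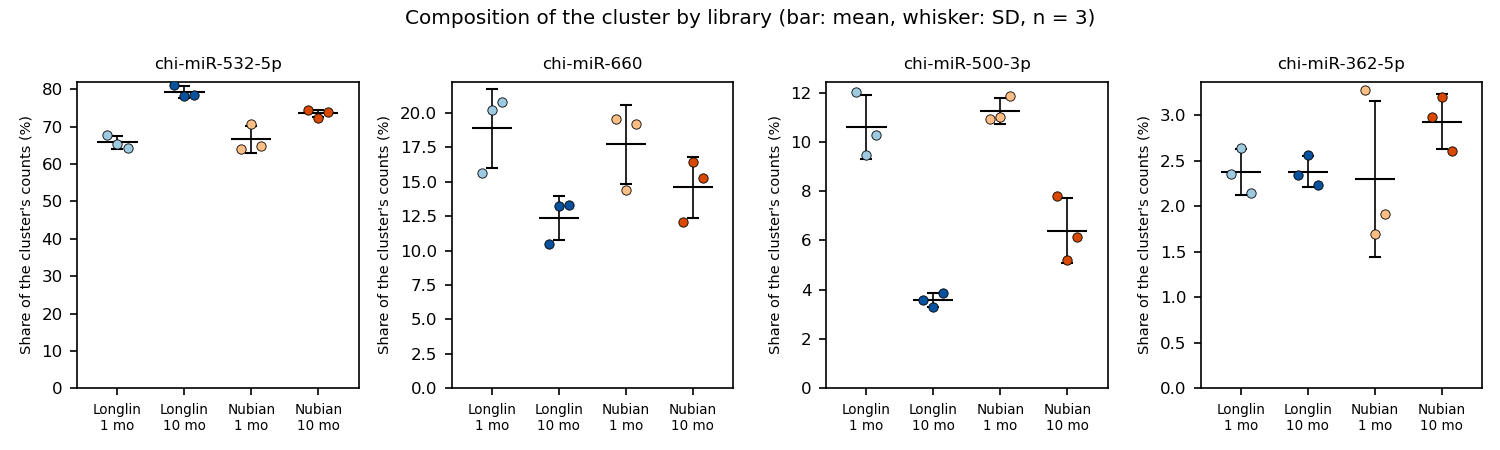
Share of 4 members in the summed counts of the cluster (vertical, percent, from 0) by breed and age label (horizontal). Points are libraries, bars are means and whiskers the SD (n = 3); the share of chi-miR-500-3p is 9.48 to 12.01% in libraries of both breeds labelled 1 month and 3.31 to 7.82% in those labelled 10 months.

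Between the breeds, in the libraries labelled 1 month, no member had all Nubian above all Longlin libraries or the reverse. Of all 331 miRNAs, 6.65% had Nubian higher and 4.23% Longlin higher, and nothing is read from the count of members. The fitted log2 difference, Nubian over Longlin, lay between -0.66 for chi-miR-502b-5p (SE 0.86) and 0.66 for chi-miR-188-5p (SE 0.54), with 0.02 (SE 0.23) for chi-miR-500-3p and -0.05 (SE 0.18) for chi-miR-532-5p. The median over the members was -0.12, against 0.13 for all miRNAs. With any 1 of these 6 libraries left out, 1 to 5 members had Longlin higher in every library, where 7.88 to 23.6% of all miRNAs did. The 5 and the 23.6% were both without Nubian replicate 2. In the same fits 0 or 1 member had Nubian higher, against 6.95 to 14.2% of all miRNAs.

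With the 10-month label, 3 members had Longlin higher in every library and none Nubian, against 29.9% and 11.2% of all miRNAs, and nothing is read from that count. They were chi-miR-532-5p at a log2 difference of -0.43 (SE 0.18), chi-miR-532-3p at -0.22 (SE 0.22) and chi-miR-502b-5p at -1.20 (SE 0.68). chi-miR-188-5p was at -1.03 (SE 0.49) and overlapped, through Nubian replicate 1. chi-miR-500-3p was at 0.52 (SE 0.23), higher in Nubian goats, and overlapped as well. Without Longlin replicate 3, 6 members had Longlin higher in every library, as did 37.1% of all miRNAs. Without Nubian replicate 2 or 3, 2 had Nubian higher, against 25.2% and 22.1% of all, and without Longlin replicate 1 or 2, 1 had, against 14.6% and 14.2%. The median was -0.22 over the members and also -0.22 over all miRNAs. Scaling by total counts without the 10 most abundant miRNAs moved the median of all to 0.03, and then no member had Longlin higher in every library and 2 had Nubian higher, against 23.3% and 19.9% of all.

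The shares compare the make-up of the cluster between the breeds without scaling, which is not a comparison of levels. Shares are parts of a whole, so a higher share of chi-miR-532-5p goes with lower shares of other members. They were not tested and have no counterpart over all miRNAs. With the 10-month label, chi-miR-532-5p was 78.3 to 81.2% of the cluster in Longlin and 72.4 to 74.4% in Nubian libraries, and chi-miR-500-3p was 3.31 to 3.86% and 5.21 to 7.82%. Neither overlapped. With the 1-month label both overlapped, at 64.4 to 67.8% and 64.0 to 70.8% for chi-miR-532-5p, and at 9.48 to 12.01% and 10.9 to 11.8% for chi-miR-500-3p.

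Members differed in how closely they followed one another over the 12 libraries, measured as the root-mean-square difference of log2 CPM after centring each on its mean. The strands of MIR532 were closest, at 0.14. chi-miR-500-3p and chi-miR-502b-3p, from separate hairpins, were 0.28 apart, while the strands of MIR500 were 0.81 and those of MIR502B 1.21 apart. The division of reads between these 3p rows is uncertain, and its part in these distances was not tested. Among the 320 tested miRNAs outside the cluster, those most like its summed level were chi-miR-30a-5p (0.20), chi-miR-3432-5p (0.22), chi-miR-23b-3p (0.23), chi-miR-3431-3p (0.25) and chi-miR-186-5p (0.25). Since chi-miR-532-5p makes up most of the sum, this likeness is mainly to that member, and all these values share the same libraries and scaling.

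Other miRNAs known as X-linked in mammals served as a list for comparison, of which 26 rows were placed on the X chromosome in the annotation. In Longlin goats 6 of the 20 tested were called higher in the libraries labelled 10 months, 7 lower and 7 neither. Of all miRNAs tested there, 31.2% were called higher and 19.4% lower. The median log2 fold change of the list was -0.35. The 6 were both arms of miR-424, miR-450 and miR-542, so they are not 6 separate hairpins. In Nubian goats 1 was higher, 2 were lower and 17 neither, against 6.78% and 5.08% of all miRNAs. Over both breeds 7 were higher, 5 lower and 9 neither, against 29% and 12.4%. Nothing is read from these counts about the X chromosome.

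The deposited predictions, pairs that the miRanda, PITA and RNAhybrid programs all gave, linked the members to 131 genes by 184 of the table's 5742 pairs. chi-miR-188-3p had 36 genes, chi-miR-532-3p 33, chi-miR-502b-3p 28, chi-miR-500-3p 14, and chi-miR-188-5p and chi-miR-500-5p 10 each. The abundant chi-miR-532-5p had 4 genes, which was also the median of the 386 miRNAs with a pair. chi-miR-660 and chi-miR-362-3p had none. SOAT2, which makes cholesterol esters, was shared by 3 members (chi-miR-188-3p, chi-miR-502b-3p and chi-miR-532-3p), and 15 further genes by 2. Those included the hairpins MIR143, MIR18B, MIR500 and MIR502B. Own hairpins were among the predictions, MIR362 for chi-miR-362-5p and MIR500 for chi-miR-500-5p. chi-miR-500-3p shared CFAP45 and LOC102169634 with chi-miR-502a, and HSPA6 and LOC100861381 with chi-miR-502b-3p, the rows it resembled. No shared regulation is read from these pairs.

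Genes known from muscle or from lipid storage stood among the predicted genes, picked here by name and not a full list. chi-miR-502b-3p was paired with MYF5 and MYF6, transcription factors of muscle cell fate. chi-miR-188-5p was paired with MEF2C, a transcription factor of muscle differentiation, and with SGCE, a sarcoglycan. chi-miR-532-3p was paired with TRIM63, a ubiquitin ligase of muscle wasting, STAC3, a part of excitation and contraction coupling, and PNPLA2, a triglyceride lipase. chi-miR-500-5p was paired with MB, which encodes myoglobin, and with PLIN2, a coat protein of lipid droplets. These are predictions, and the levels of the genes were not analysed here.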

How the data were processed

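Small RNA libraries of 12 goats were analysed. The authors sequenced TruSeq small RNA libraries, aligned them to the goat genome (ARS1.2), filtered other small RNAs with Rfam and assigned reads to goat miRNAs of miRBase. The paper names HISAT2 and Novogene, while the submitters' notes name Bowtie 0.12.2 and another company, and their extraction text speaks of adipose tissue although the source is muscle. The deposited counts are raw reads per miRNA and library. The deposited comparison tables hold signal values, the authors' means of counts normalized with DESeq2, used here only to check the age labels, and the authors' fold changes and p-values, which were not used. Tables of GO terms and the deposited TPM were not used. The table of predicted targets holds pairs without measured values. Of the columns of per-sample values, 0 were left unmapped.

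Samples were grouped by breed and age label. The counts were scaled by TMM and tested by the quasi-likelihood method of edgeR 4.0.16 (R 4.3.3), keeping a miRNA when 3 or more libraries of the fit had 10 or more counts, with Benjamini-Hochberg adjustment over all miRNAs tested. A call was an adjusted p under 0.05 together with a log2 fold change beyond 1 in size, except for the interaction and arm ratios, which had no fold limit. Differences between breeds came from a fit of 4 group means and were not tested. Arm ratios, with 0.5 added to each count, were tested by limma 3.58.1. All members are named. Non-members were named by the 5 smallest distances, and predicted targets known from muscle or lipid storage after the table was seen. Members and lists were chosen with earlier results of these data known. The alternatives were DESeq2 1.42.0, its size factors, total counts with and without the 10 most abundant miRNAs, no filter, no fold limit, 1 joint fit, a replicate block, other arm settings and each library left out. The scripts were tested on simulated data. No libraries of a group agreed within sampling noise. Reads carried no molecular identifiers, so statements on depth cover counting error only. Sequences of the miRNAs are not shown here. Plots used matplotlib.

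Replicate numbers recur in the 4 groups, and the labels do not say what they mark. Between breeds, deviations of same-numbered libraries correlated at 0.28, 0.40 and 0.34 with the 10-month label and at -0.26, 0.33 and 0.25 with the 1-month label. With that number as a block the median log2 difference of the members at 10 months was -0.22, as without it. At 1 month it was -0.13 with the block and -0.12 without.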

Additional observations from a re-analysis of the deposited data

How the results depend on the processing

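The directions of chi-miR-500-3p, chi-miR-502a and chi-miR-502b-3p held in each alternative run for the age comparisons. In Longlin goats total counts gave 5 members higher and 1 lower (42% and 7.96% of all miRNAs) in place of 2 and 3 (31.2% and 19.4%). In Nubian goats DESeq2 and the joint fit of 12 libraries gave 1 lower each (7.8% and 7.25% of all miRNAs) in place of 0 (5.08%). Over both breeds the main fit gave 2 higher and 1 lower (29% and 12.4% of all miRNAs). DESeq2 gave 2 lower (14.5%), and its size factors 1 higher and 2 lower (28.7% and 13.9%). Total counts without the 10 most abundant miRNAs gave 1 higher (28.7%), and no filter 1 higher and 3 lower (20% and 11.4%). No fold limit gave 5 higher and 3 lower (34.7% and 21.1%). Between breeds, DESeq2 size factors gave 3 members with Longlin higher at 1 month (7.25% of all miRNAs) and 2 with Nubian higher at 10 months (12.7%). Total counts without the 10 most abundant gave 1 with Longlin higher at 1 month (6.34%). At 10 months that scaling gave 2 with Nubian and 0 with Longlin higher (19.9% and 23.3%). A mean of 50 counts on both arms left 1 hairpin called, since MIR502B was not tested. The cause was not tested for the others.

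Values that changed sign were chi-miR-660 under total counts (0.29 in Longlin goats, 0.059 over both breeds), chi-miR-188-5p in Nubian goats (0.11 under total counts, and from -0.89 to 0.19 with each library left out, above 0 without replicate 2 labelled 1 month and replicates 2 and 3 labelled 10 months), and in Longlin goats chi-miR-500-5p (from -0.099 to 0.47, below 0 without replicate 1 labelled 1 month) and chi-miR-362-5p (from -0.018 to 0.39, below 0 without replicate 3 labelled 1 month). With each library left out, members called higher ranged from 1 to 3 in Longlin goats, against 23.9 to 32.2% of all miRNAs. Over both breeds they ranged from 0 to 2, against 26 to 29.9%. Members called lower ranged from 0 to 1 in Nubian goats, against 0 to 11.6%, and from 1 to 3 over both breeds, against 11 to 16.9%. Members with Nubian higher ranged from 0 to 1 at 1 month (6.95 to 14.2% of all miRNAs) and 0 to 2 at 10 months (12.6 to 25.2%). Those with Longlin higher ranged from 1 to 5 (7.88 to 23.6%) and from 2 to 6 (28.8 to 37.4%). Arm calls and the 3 lower calls in Longlin goats did not change.

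Same-numbered libraries of the 2 labels correlated at -0.01, 0.17 and 0.20 in Longlin and 0.02, 0.22 and 0.08 in Nubian goats, and not every library correlated best with its own number, so the numbers were not taken as pairs. With the replicate block, 2 members were called higher and 3 lower in Longlin goats (31.5% and 19.4% of all miRNAs). In Nubian goats 0 and 0 were called (11.9% and 3.05%), and over both breeds 2 and 1 (29.3% and 12.1%). The block changed no call of a member or hairpin. Counts of 0 to 86 reads per library limit chi-miR-188-5p, chi-miR-362-3p, chi-miR-502a and both strands of MIR502B.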
